A study of Danio rerio with 3 samples.

Results

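The ATP-binding cassette (ABC) transporter genes of zebrafish embryos were described across 3 RNA-seq libraries. The members are the 54 genes, of 31950 in the deposited tables, whose name begins with abc, a subfamily letter from A to H and a digit. There are 9 members in subfamily A, 11 in B, 13 in C, 6 in D, 1 in E, 4 in F, 9 in G and 1 in H. The libraries come from *Tg(lyz:TagRFP)* embryos, a line whose neutrophils are red fluorescent, and by the protocol all 3 groups carried an injected mRNA for Halo-TEV-Keap1, a fusion of a Halo domain with the electrophile sensor Keap1. The source names of the samples number the Keap protein 2 (HNE Z-REX), 3 (HDE Z-REX) and 1 (non-treated), which was read as a numbering slip. The HNE Z-REX embryos had 4-hydroxynonenal (HNE) released beside Keap1, the HDE Z-REX embryos had 4-hydroxydodecenal (HDE) released in the same way, and the non-treated embryos had neither. HDE is the HNE-type enal with the longer carbon chain. By the labels, Z-REX embryos were kept with 1 μM of a photocaged precursor for 30 h in the dark, exposed to light of 365 nm at 0.5 mW/cm2 for 3 min and collected after a further 1.5 h. This dose refers to the precursor of HNE, no dose being given for that of HDE. In other assays of the study, non-treated embryos are a control apart from light alone. The number of embryos per library is not given in the sources used here. Each condition has 1 library, so no difference below has a replicate check.

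ABC proteins share a nucleotide-binding domain that hydrolyses ATP. In most proteins of subfamilies A, B, C, D, G and H this domain powers the movement of lipids, drugs, conjugates, peptides or metal complexes across a membrane. Subfamily C also holds channel regulators and a chloride channel. The E and F proteins have no membrane-spanning part and act on ribosomes. Several mammalian ABCC genes are known targets of Nrf2, the transcription factor that Keap1 holds in check. Their products export glutathione conjugates, including those of electrophiles such as HNE. The H subfamily is found in fish and insects and not in mammals.

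The libraries held 17704410 counts (HNE Z-REX), 15084294 counts (HDE Z-REX) and 17996111 counts (non-treated). Levels of different genes are compared below in the deposited FPKM, which is scaled by gene length, and libraries are compared in counts scaled by edgeR's TMM method, given as CPM (the counts-per-million scale). Ratios were taken only where a gene averaged 10 or more counts over the libraries, which 18563 genes and 41 of the 54 members did. A gene was called where an exact binomial test of its reads in a pair of libraries gave an adjusted p under 0.05 and the ratio was at least 1.5-fold. This test compares libraries, not conditions, and its 95% intervals cover counting error only. Tissue markers of an embryo were present for muscle, epidermis, notochord, blood, lens and hatching gland. The hepatocyte and neuron lists were also present in 2 of their 3 markers each (*tfa* and *cp*, *elavl3* and *neurod1*), while *fabp10a* had at most 1 count and *gap43* had 0 counts in every library. Some cell types differed between the libraries. The 3 neutrophil markers together had 36.6 CPM after HNE Z-REX, 63.3 after HDE Z-REX and 70.1 without treatment, and the 3 macrophage markers had 4.96, 11.9 and 13.8. The low macrophage sum after HNE Z-REX came from *mpeg1.1* and *mfap4*, while *csf1ra* had 21, 24 and 24 counts in the same order. The study listed *lyz*, *mpx* and *mpeg1.1* from these same libraries, so their direction is not independent evidence. The 3 lens markers summed to 160, 204 and 246 CPM, and the 3 muscle markers to 7897, 6861 and 8898 CPM. The 4 erythroid marker genes summed to 1137 (HNE Z-REX), 1235 (HDE Z-REX) and 1752 CPM (non-treated). In whole embryos, fewer cells of a type and less RNA per cell cannot be told apart, and the part of these cell types in the ABC results was not tested.

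ABC genes covered a wide range of levels. Of the 5 most abundant by mean FPKM, 4 do not encode transporters. *abce1*, which encodes the factor that splits ribosomes after termination, was at 97.2 FPKM after HNE Z-REX, 81.7 after HDE Z-REX and 94.9 without treatment. *abcf1*, a regulator of translation initiation, followed at 84.9, 70.8 and 84.0 FPKM in the same order of libraries, and *abcf2a* at 60.8, 34.3 and 51.3 FPKM. The next were *ABCF3*, at 24.7, 21.0 and 24.4 FPKM, and *abcb5*, a relative of the P-glycoprotein drug pump, at 26.3, 20.4 and 13.9 FPKM. *ABCF3* had only 277, 209 and 276 counts, so its place among the 5 rests on the scaling by gene length. Only between *ABCF3* and *abcb5* did the order of these 5 change with the library.

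Among the membrane transporters, the most abundant members of the other subfamilies lay between 2.17 and 19.8 FPKM. *abca1b*, which moves cholesterol and phospholipid out of cells, led subfamily A with 19.2 FPKM after HNE Z-REX, 18.6 after HDE Z-REX and 19.8 without treatment. *abcg2c*, 1 of 4 copies related to the mammalian breast cancer resistance protein, led subfamily G at 18.8, 16.2 and 19.6 FPKM. *abcc5*, an exporter of organic anions, led subfamily C at 14.8, 18.4 and 12.7 FPKM, and the peroxisomal *abcd3a* led subfamily D at 15.5, 14.2 and 15.0 FPKM. *abch1* was at 2.73, 2.17 and 2.19 FPKM. In each library 12 members reached 10 FPKM and 32 reached 1 FPKM. All ABC genes together took between 0.146% and 0.163% of the counts.

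**Figure D1:**
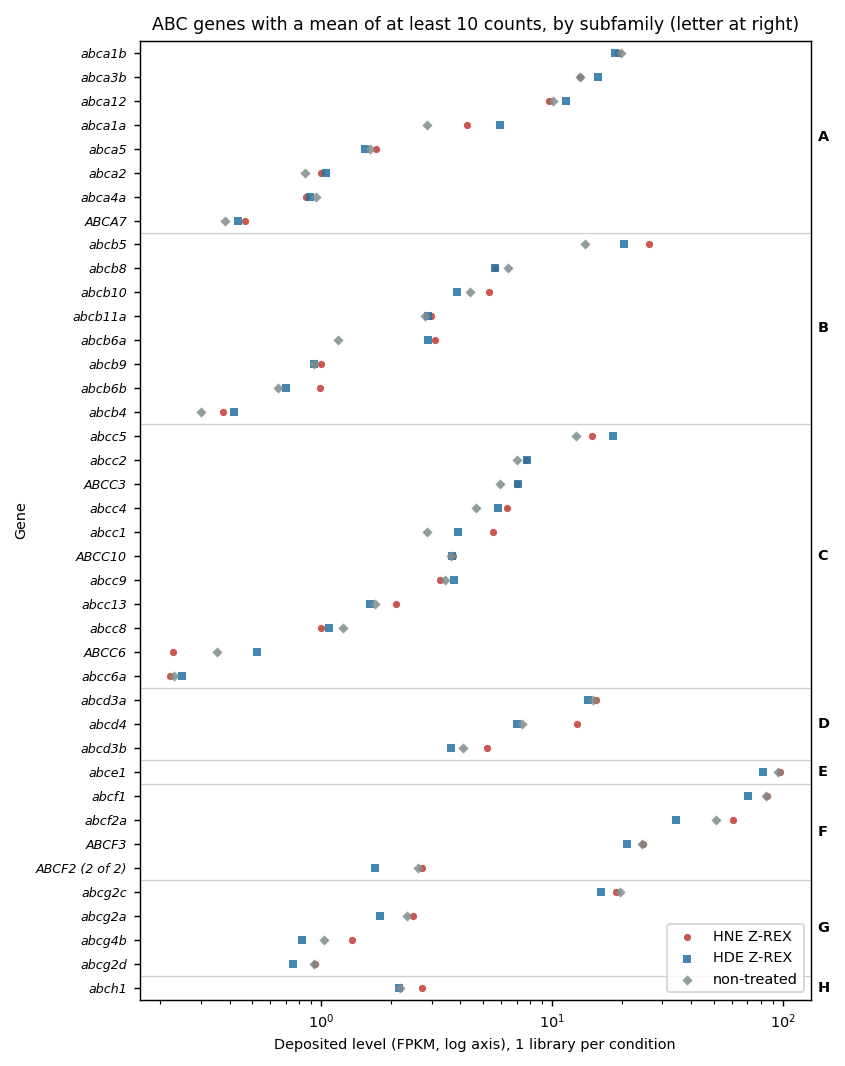
Deposited FPKM (log axis) of 40 tested ABC genes, 1 point per library, grouped by subfamily. *abce1* and *abcf1* lie furthest right in all 3 libraries. The points of *abcb5*, *abcb6a*, *abca1a*, *abcc1*, *ABCC6*, *abcd4* and *abcf2a* are among those spread apart, while those of most genes lie close together.

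The other 13 members were below the mean of 10 counts, and the highest count among them was 11 (*abcc12*, in the non-treated library). The closest to the limit were *abcc12*, with 4, 9 and 11 counts after HNE Z-REX, HDE Z-REX and no treatment, and *abcg1*, a sterol exporter, with 7, 9 and 6. The lowest mean inside the limit was 23.7 counts (*abcb4*). *abcb11b*, a copy of the hepatic bile salt export pump, had 2 and 1 counts after HNE Z-REX and HDE Z-REX and 0 counts without treatment, where a count of 0 allows up to 0.17 CPM. The other copy, *abcb11a*, was inside the limit, with 235, 205 and 224 counts after HNE Z-REX, HDE Z-REX and no treatment. The intestinal and hepatic sterol exporters *abcg5* and *abcg8* had at most 3 counts, and *ABCD2 (2 of 2)* had 0 counts in all 3 libraries. No ratio is given for the 13 members below the limit.

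After HNE Z-REX, 4 of the 41 tested ABC genes passed the threshold against the non-treated library, and all 4 were higher. That is 9.76% of the members, beside 3.36% of all genes tested. Genes called higher made up 1.75% and genes called lower 1.62% of all genes. The members had a median of 251 counts, beside 201 for all genes tested. The 4 genes belong to 3 subfamilies: *abcb5* and *abcb6a* in B, *abcc1* in C and *abcd4* in D.

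*abcb5* (ENSDARG00000021787) had 2298 counts after HNE Z-REX, 1587 after HDE Z-REX and 1221 without treatment, which is 131, 102 and 69.0 CPM. The HNE library was the highest and the non-treated library the lowest. The ratio was 1.90 after HNE Z-REX (95% interval 1.77 to 2.04; adjusted p = 1.3e-74, exact binomial test). After HDE Z-REX it was 1.48 (1.38 to 1.60), just below the 1.5-fold threshold. Scaled by total counts, the HDE Z-REX log2 ratio of *abcb5* was 0.63 and passed.

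*abcb6a* (ENSDARG00000063297), whose human counterpart transports porphyrins, is a gene that the study itself listed from these libraries, so that its direction is not independent evidence. Its counts were 155 after HNE Z-REX, 129 after HDE Z-REX and 59 without treatment, or 8.85, 8.32 and 3.33 CPM. Both Z-REX libraries were above the non-treated one and differed little from each other. The ratio was 2.65 after HNE Z-REX (95% interval 1.95 to 3.64) and 2.49 after HDE Z-REX (1.82 to 3.46), the largest among the members in each comparison. *abcb6a* was the only member called in both. The share of all genes called in both is not given, so this count has no background beside it. The study's own test of the same libraries found it significant after HNE Z-REX and not after HDE Z-REX. The 2 comparisons share the non-treated library.

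*abcc1* (ENSDARG00000104719), an exporter of glutathione conjugates, had 504, 376 and 313 counts after HNE Z-REX, HDE Z-REX and no treatment, or 28.8, 24.3 and 17.7 CPM. The ratio was 1.63 after HNE Z-REX (1.41 to 1.88; adjusted p = 4.1e-10, exact binomial test) and 1.37 after HDE Z-REX (1.18 to 1.60), which was not called. In the deposited FPKM values the HNE Z-REX ratio was 1.93, above the interval of the count ratio. Over 123 member ratios the median gap between the 2 units was 0.0094 on the log2 scale, and the largest was 0.39 (*abcg4b*).

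*abcd4* (ENSDARG00000061770), whose human counterpart moves vitamin B12 out of lysosomes, was higher in the HNE library alone. It had 423 counts after HNE Z-REX, 209 after HDE Z-REX and 224 without treatment, or 24.1, 13.5 and 12.7 CPM. The ratio was 1.91 after HNE Z-REX (1.62 to 2.25; adjusted p = 9.9e-14, exact binomial test) and 1.06 after HDE Z-REX (0.877 to 1.29). In a later zebrafish assembly (GRCz12tu) the gene overlaps *CCDC178*, which had 25, 25 and 26 counts in the 3 libraries.

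**Figure D2:**
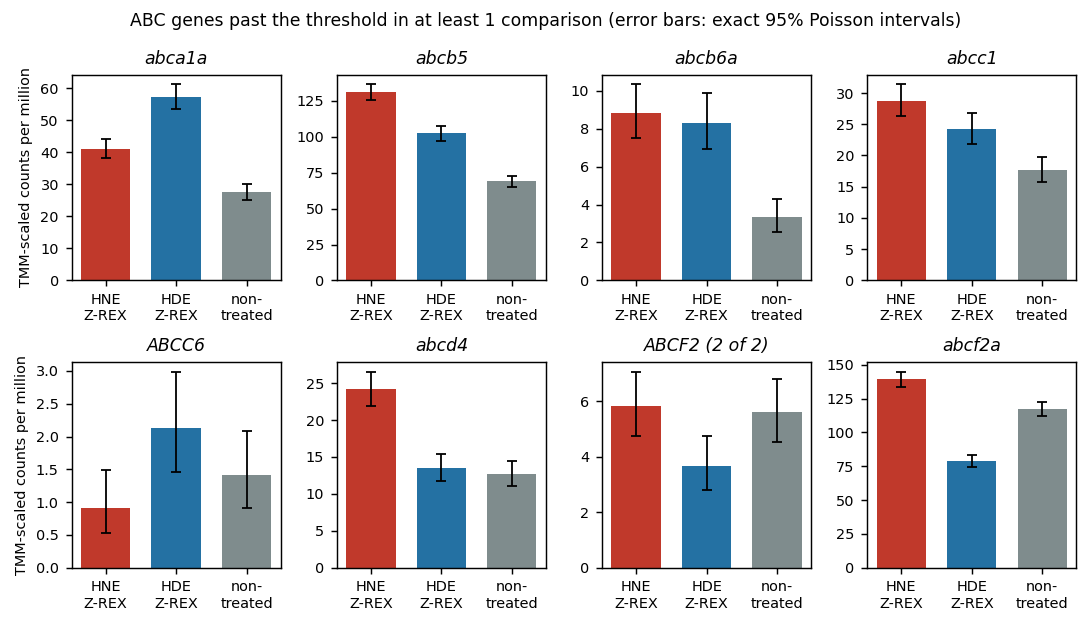
TMM-scaled level (CPM) for the 8 ABC genes called in at least 1 of the 3 comparisons, 1 bar per library (HNE Z-REX, HDE Z-REX, non-treated) with exact 95% Poisson intervals for counting error; each panel has its own axis from 0. *abcb6a* stands high in both Z-REX libraries, *abcd4* only in the HNE library, and *abcf2a* is lowest in the HDE library.

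Most ratios of the members were near 1 after HNE Z-REX. For 31 of the 41 genes the 95% interval of the ratio includes 1, and for 35 the ratio lay within 1.5-fold. The interval lay above 1 for 10 members (24.4%, beside 12.5% of all genes) and below 1 for 0 members (beside 12.6% of all genes). The median log2 ratio of the members was 0.11, beside 0.0038 over all genes tested.

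After HDE Z-REX, 2 of the 41 members were called against the non-treated library, both higher: *abcb6a* and *abca1a*. This is 4.88% of the members, close to the 4.26% of all genes tested, of which 2.77% were higher and 1.49% lower. The interval lay above 1 for 9 members (22.0%, beside 15.0% of all genes) and below 1 for 6 members (14.6%, beside 15.5% of all genes). The median log2 ratio was 0.021, beside 0.0073 over all genes.

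*abca1a* (ENSDARG00000074635), which with *abca1b* corresponds to the mammalian cholesterol exporter ABCA1, had 720 counts after HNE Z-REX, 889 after HDE Z-REX and 486 without treatment, or 41.1, 57.3 and 27.5 CPM. The HDE library was the highest of the 3. The ratio was 2.09 after HDE Z-REX (1.87 to 2.34; adjusted p = 1.4e-38, exact binomial test) and 1.50 after HNE Z-REX (1.33 to 1.68), where it lay just under the threshold and passed when scaled by total counts. Its duplicate *abca1b* had 2823, 2414 and 2927 counts, with ratios of 0.974 (0.924 to 1.03) after HNE Z-REX and 0.941 (0.891 to 0.993) after HDE Z-REX. The share of *abca1a* in the reads of the pair was 20.3% after HNE Z-REX (exact 95% interval 19.0 to 21.7), 26.9% after HDE Z-REX (25.4 to 28.5) and 14.2% without treatment (13.1 to 15.5). These shares come from the same counts as the ratios above, so they are not separate evidence, and their intervals cover counting error only.

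**Figure D3:**
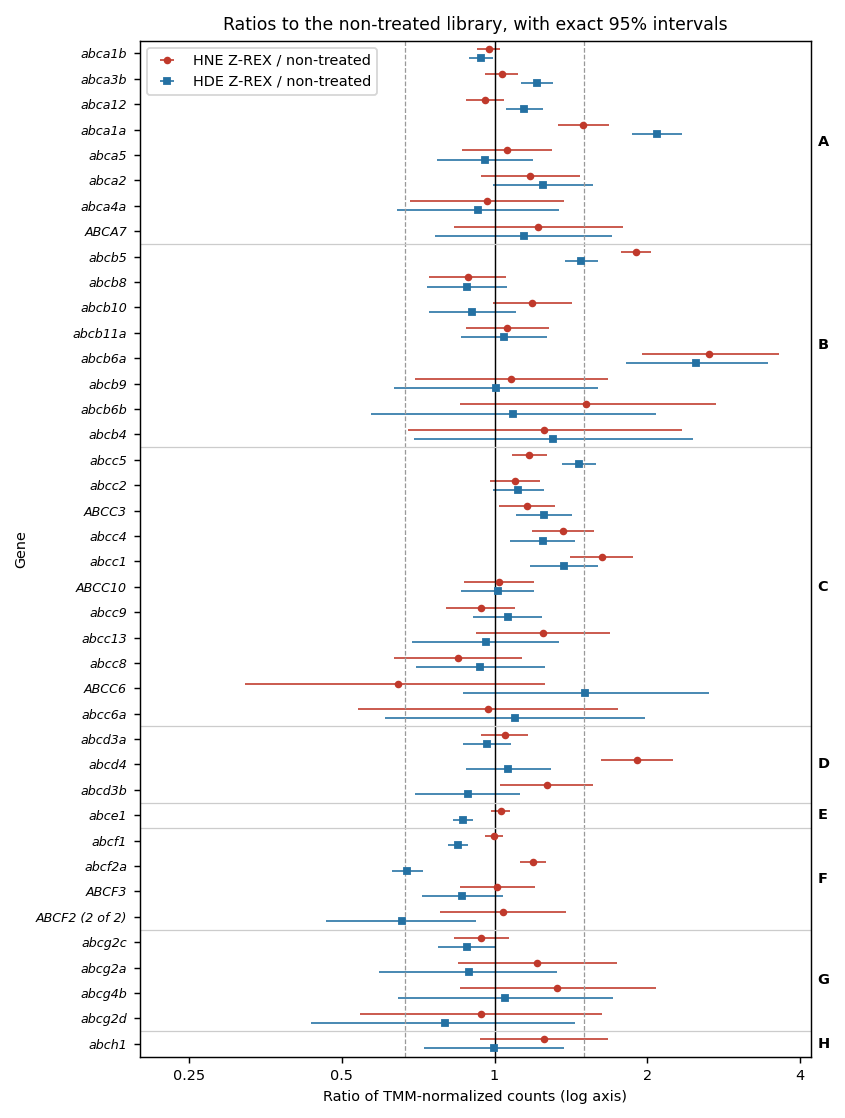
Ratio of TMM-normalized counts to the non-treated library (log axis) for HNE Z-REX and HDE Z-REX in 40 tested ABC genes, with exact 95% intervals for counting error; dashed lines mark 1.5-fold either way. *abcb6a* lies at 2.65 and 2.49, *abcd4* at 1.91 and 1.06, and the HDE points of the E and F genes lie left of 1.

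The members were next grouped by the role of their products. Drug and conjugate pumps had 12 members, of which 11 were tested. After HNE Z-REX, 2 of the 11 were called, *abcb5* and *abcc1*, and 0 of the 11 after HDE Z-REX, beside 3.36% and 4.26% of all genes. The interval lay above 1 for 5 of the 11 in each comparison, beside 12.5% of all genes after HNE Z-REX and 15.0% after HDE Z-REX, and these were *abcb5*, *abcc1*, *ABCC3*, *abcc4* and *abcc5* both times. *abcc4*, which exports cyclic nucleotides and conjugates, had 475, 384 and 352 counts (HNE Z-REX, HDE Z-REX, non-treated), with ratios of 1.36 (1.18 to 1.57) and 1.25 (1.07 to 1.44). *abcc5* had 1370, 1522 and 1182 counts, with ratios of 1.17 (1.08 to 1.27) and 1.47 (1.36 to 1.59), the second just below the threshold. *abcc2*, which secretes conjugates into bile in mammals, had 649, 583 and 597 counts and intervals that include 1 in both comparisons. The same was true of *abcb4*, a xenobiotic pump of zebrafish embryos, with 26, 24 and 21 counts, and of *abcg2a*, with 71, 46 and 59. Summed over the 12 pumps, the level was 94.2 FPKM after HNE Z-REX, 86.4 after HDE Z-REX and 73.8 without treatment. Within these sums, *abcb5* held 26.3, 20.4 and 13.9 FPKM and *abcc5* held 14.8, 18.4 and 12.7 FPKM, in the same order. The median log2 ratio of the 11 was 0.23 after HNE Z-REX and 0.32 after HDE Z-REX.

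Of the 5 mitochondrial members, only *abcb6a* was called, after HNE Z-REX and after HDE Z-REX (beside 3.36% and 4.26% of all genes). *abcb10*, linked to heme synthesis in mammalian red cells, had 273 counts after HNE Z-REX, 184 after HDE Z-REX and 232 without treatment, and *abcb8* had 249, 220 and 284. The intervals of both genes include 1 in both comparisons. The duplicate *abcb6b* had 33, 21 and 22 counts, with ratios of 1.51 (0.857 to 2.73) and 1.09 (0.570 to 2.08). The first of these intervals holds both 1 and the ratio of *abcb6a*. Of 11 tested genes of heme and iron-sulfur synthesis, 0 were called higher in either comparison, beside 1.75% and 2.77% of all genes. *alas1*, the first enzyme of heme synthesis outside red cells, was called lower after HNE Z-REX with a ratio of 0.634, beside 1.62% of all genes. In each comparison the interval lay above 1 for 2 of the 11 and below 1 for 1, *alas1*. Of all genes, the interval lay above 1 for 12.5% after HNE Z-REX and 15.0% after HDE Z-REX. It lay below 1 for 12.6% and 15.5%. The 2 were *nfs1*, with ratios of 1.36 after HNE Z-REX and 1.37 after HDE Z-REX, and *urod*, with 1.26 and 1.25. Of the 4 erythroid marker entries, the 3 globin entries (*hbbe1.1* under 2 identifiers and *hbae3*) had ratios between 0.574 and 0.741 in the 2 comparisons, and *alas2* had 0.978 (0.889 to 1.07) after HNE Z-REX and 0.905 (0.818 to 1.00) after HDE Z-REX. Reads of *hbbe1.1* were divided between genes. The part of red cells in these values was not tested.

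Of the 14 lipid and sterol members, 9 were tested. After HNE Z-REX 0 of them were called and after HDE Z-REX 1, *abca1a*, beside 3.36% and 4.26% of all genes. *abca3b* and *abca12*, which move lipids of lung surfactant and skin in mammals, had ratios of 1.03 (0.959 to 1.11) and 0.958 (0.880 to 1.04) after HNE Z-REX, and of 1.21 (1.13 to 1.30) and 1.14 (1.05 to 1.24) after HDE Z-REX, within 1.5-fold. Among 10 entries of sterol efflux partners, the apolipoprotein gene *apoea* was called lower in both comparisons, with ratios of 0.447 after HNE Z-REX and 0.470 after HDE Z-REX, and *lcat*, which esterifies the cholesterol of lipoproteins, was called higher after HDE Z-REX at 1.72. *apoeb* was called lower after HNE Z-REX at 0.663 (0.652 to 0.673) and lay just inside the threshold after HDE Z-REX at 0.674 (0.663 to 0.686), with a direct ratio of 0.983 (0.965 to 1.00). Of all genes, 1.62% were called lower after HNE Z-REX and 1.49% after HDE Z-REX, and 1.75% and 2.77% were called higher. The lipid sensor gene *nr1h3*, listed under 2 identifiers, was not called under either. The 3 enterocyte markers summed to 928, 975 and 1523 CPM in the HNE Z-REX, HDE Z-REX and non-treated libraries, and their part in these values was not tested.

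The 5 ribosome-associated members (*abce1*, *abcf1*, *abcf2a*, *ABCF2 (2 of 2)* and *ABCF3*) all had ratios below 1 after HDE Z-REX, as did 9096 of the 18563 genes tested. The interval lay below 1 for 4 of the 5, beside 15.5% of all genes. There 0 of the 5 passed the threshold, beside 4.26% of all genes. *abce1* had 4104 counts after HNE Z-REX, 3064 after HDE Z-REX and 4032 without treatment, with ratios of 1.03 (0.984 to 1.07) and 0.867 (0.827 to 0.909). For *abcf1* the counts were 4673, 3515 and 4731 and the ratios 0.997 (0.958 to 1.04) and 0.848 (0.811 to 0.886). *abcf2a* (ENSDARG00000038785) had 2441, 1223 and 2072 counts, with ratios of 1.19 (1.12 to 1.26) after HNE Z-REX and 0.673 (0.627 to 0.723) after HDE Z-REX, just inside 1.5-fold. *ABCF2 (2 of 2)* (ENSDARG00000052331), listed as a second copy, had 102, 57 and 99 counts and an HDE Z-REX ratio of 0.657 (0.466 to 0.919; adjusted p = 0.057, exact binomial test). With DESeq2 size factors it passed as lower, at a log2 ratio of -0.62. *abcf2a* supplied 96.0%, 95.5% and 95.4% of the reads of this pair in the 3 libraries. Among 5 tested partners in ribosome release and initiation, the intervals of 0 lay below 1 after HNE Z-REX (beside 12.6% of all genes) and those of 4 after HDE Z-REX (beside 15.5%). None of these partners was called in the 2 comparisons, beside 3.36% and 4.26% of all genes.

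HNE Z-REX and HDE Z-REX were also compared directly, as 1 pair of related electrophiles. Of the 41 members, 4 were called (9.76%, beside 3.51% of all genes tested): *abcd4*, *abcf2a* and *ABCF2 (2 of 2)* were higher after HNE Z-REX, and *ABCC6* was lower. Among all genes, 1.21% were called higher and 2.30% lower. The interval lay above 1 for 10 members (24.4%, beside 14.1% of all genes) and below 1 for 5 (12.2%, beside 12.4%). The median log2 ratio of the members was 0.099, beside -0.00070 over all genes.

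The ratio of HNE Z-REX to HDE Z-REX was 1.79 for *abcd4* (1.51 to 2.12; adjusted p = 7.1e-11, exact binomial test) and 1.77 for *abcf2a* (1.65 to 1.89; adjusted p = 1.0e-59, exact binomial test). In *abcd4* the HNE library stood above the 2 others. In *abcf2a* the HDE library stood below the 2 others. *ABCF2 (2 of 2)* had a ratio of 1.58 (1.13 to 2.23; adjusted p = 0.036, exact binomial test). *ABCC6* (ENSDARG00000094901), whose mammalian counterpart is needed to prevent calcification, had only 16 counts after HNE Z-REX, 33 after HDE Z-REX and 25 without treatment. Its ratio of HNE Z-REX to HDE Z-REX was 0.429 (0.221 to 0.802; adjusted p = 0.039, exact binomial test), and the non-treated library lay between them. *abcc6a*, another member named for ABCC6, had 25, 25 and 26 counts (HNE Z-REX, HDE Z-REX, non-treated) and a direct ratio of 0.885 (0.488 to 1.61). The call of *ABCC6* was lost when no filter on low counts was used, and that of *ABCF2 (2 of 2)* when libraries were scaled by total counts. With an assumed coefficient of variation of 0.2 between libraries, 0 members were called by edgeR's exact test in any of the 3 comparisons. At this setting 0.183% (HNE Z-REX against non-treated), 0.0862% (HDE Z-REX against non-treated) and 0.102% (HNE Z-REX against HDE Z-REX) of all genes were called.

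For the other genes called after a single electrophile, the direct comparison was smaller than 1.5-fold. The ratio of HNE Z-REX to HDE Z-REX was 1.28 for *abcb5* (1.20 to 1.37), 1.19 for *abcc1* (1.04 to 1.36) and 0.717 for *abca1a* (0.649 to 0.792). For *abcb6a* it was 1.06 (0.836 to 1.35), so that a difference of up to 1.35-fold between the 2 libraries remains within counting error. *abcd3b*, a second peroxisomal gene, had a ratio of 1.43 (1.14 to 1.80), and its duplicate *abcd3a* had 1.08 (0.970 to 1.21).

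**Figure D4:**
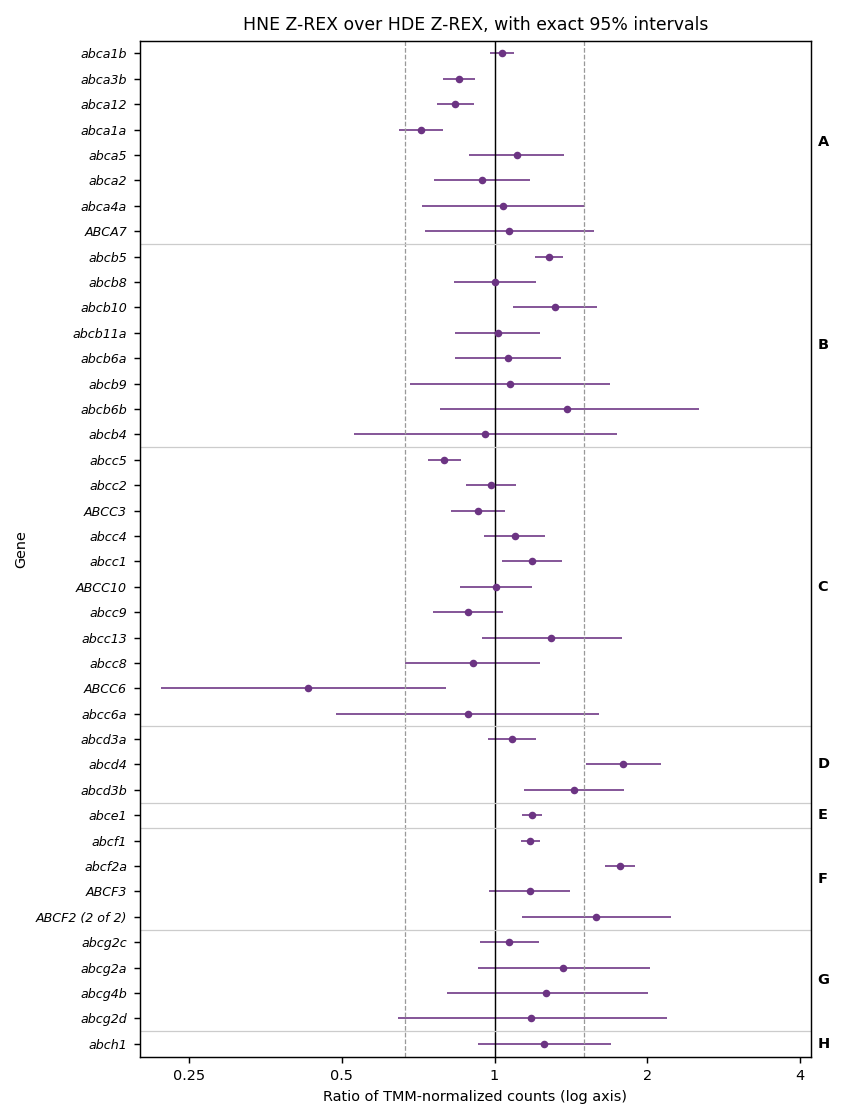
Ratio of TMM-normalized counts of HNE Z-REX to HDE Z-REX (log axis) for 40 tested ABC genes, with exact 95% intervals for counting error; dashed lines mark 1.5-fold either way. *abcd4* and *abcf2a* lie at 1.79 and 1.77 with intervals above the dashed line, and *ABCC6* lies at 0.429 with a wide interval.

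The subfamilies were then set side by side, by summed level and by summed reads. Subfamilies E and F together held 54.2% of the summed FPKM of all ABC genes after HNE Z-REX, 49.8% after HDE Z-REX and 56.7% without treatment. Subfamily B summed to 65.0 FPKM after HNE Z-REX, 54.1 after HDE Z-REX and 49.3 without treatment. Its reads had a ratio of 1.43 (1.36 to 1.49) after HNE Z-REX and 1.18 (1.12 to 1.24) after HDE Z-REX. *abcb5* supplied 2298 of 4208 reads of the subfamily after HNE Z-REX, 1587 of 3079 after HDE Z-REX and 1221 of 2980 without treatment. Subfamily C had ratios of 1.17 (1.12 to 1.22) and 1.25 (1.20 to 1.31). Subfamily D had ratios of 1.26 (1.16 to 1.36) and 0.970 (0.888 to 1.06), and subfamily A of 1.03 (0.998 to 1.07) and 1.13 (1.09 to 1.17).

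Subfamily F had a ratio of 1.05 (1.02 to 1.09) after HNE Z-REX and 0.795 (0.767 to 0.825) after HDE Z-REX, the only subfamily with several members whose summed reads were below the non-treated library by more than counting error. In subfamily G the intervals of both ratios include 1, at 1.01 (0.902 to 1.12) and 0.911 (0.811 to 1.02). Of its 4 tested genes 0 were called in any comparison, beside between 3.36% and 4.26% of all genes. *abch1*, with 109, 77 and 88 counts in the HNE Z-REX, HDE Z-REX and non-treated libraries, was not called either. Both of its intervals include 1. Median log2 ratios of the subfamilies ran from 0.038 in F to 0.34 in D after HNE Z-REX, and from -0.40 in F to 0.19 in A after HDE Z-REX. The medians rest on between 1 and 11 tested genes each, the sums on all members of a subfamily, and no test was made between subfamilies. Without subfamilies E and F, the reads of the other 49 members had ratios of 1.16 (1.14 to 1.19) and 1.15 (1.12 to 1.18), and the ratio of HNE Z-REX to HDE Z-REX was 1.01 (0.988 to 1.03). Such sums are weighted to the genes with many reads. The median log2 ratio of the 36 tested among them was 0.17 after HNE Z-REX and 0.078 after HDE Z-REX.

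**Figure D5:**
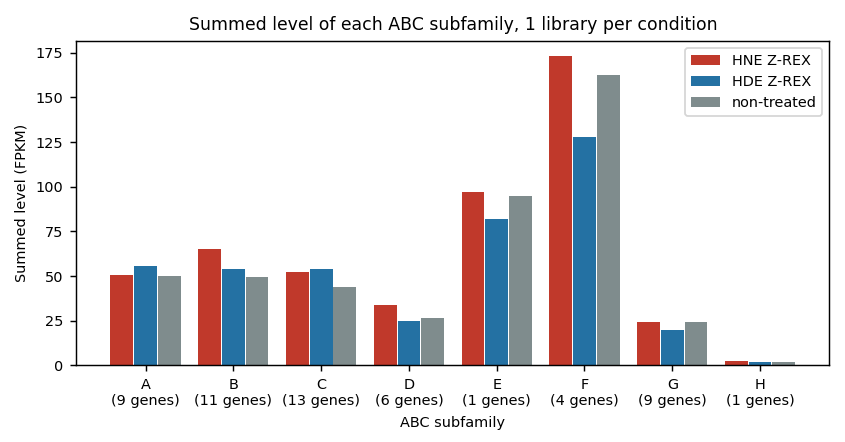
Summed deposited FPKM of each ABC subfamily in the HNE Z-REX, HDE Z-REX and non-treated libraries (1 bar per library, no replicates), with the number of genes under each letter. The F bars are the tallest, with HDE Z-REX the lowest of the 3, and the B bar is highest after HNE Z-REX.

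Genes around the transporters were examined through lists. Of 13 OATP genes, which encode uptake carriers for organic anions, 8 were tested. After HDE Z-REX 1 was called and after HNE Z-REX 0, beside 4.26% and 3.36% of all genes. The called gene was *slco2a1*, with 11, 20 and 7 counts in the HNE Z-REX, HDE Z-REX and non-treated libraries. In the direct comparison 1 of the 8, *slco2b1*, was called lower after HNE Z-REX, beside 2.30% of all genes. It had 75 counts, against 103 after HDE Z-REX. The median log2 ratio of the 8 was -0.087 after HNE Z-REX and 0.15 after HDE Z-REX. Of 8 peroxisomal partner genes, 0 were called in any of the 3 comparisons, beside between 3.36% and 4.26% of all genes. Among 6 regulators of transporter genes, *keap1a* and *nfe2l2b*, a zebrafish copy of Nrf2, were called higher after HNE Z-REX, with ratios of 1.62 (1.34 to 1.96) and 2.11 (1.38 to 3.27), beside 1.75% of all genes. After HDE Z-REX 0 of the 6 were called (beside 4.26% of all genes), and *keap1a* and *nfe2l2b* had ratios of 1.36 (1.11 to 1.68) and 1.71 (1.09 to 2.72). *nfe2l2b* had 71, 51 and 34 counts (HNE Z-REX, HDE Z-REX, non-treated). The other copy of Nrf2, *nfe2l2a*, had 754, 777 and 759 counts in the same order. Its ratios were 1.00 (0.906 to 1.11) after HNE Z-REX and 1.17 (1.055 to 1.29) after HDE Z-REX. The interval lay above 1 for 4 of the 6 after HNE Z-REX and for 5 after HDE Z-REX, beside 12.5% and 15.0% of all genes. Neither *keap1a* nor *nfe2l2b* was called between HNE Z-REX and HDE Z-REX, at ratios of 1.18 (0.988 to 1.42) and 1.23 (0.848 to 1.80). Among 3 ABC genes that carry other names, 0 of the 2 tested were called, beside between 3.36% and 4.26% of all genes. *si:dkey-57h18.2* had 72, 63 and 84 counts (HNE Z-REX, HDE Z-REX, non-treated), *cftr*, a chloride channel of subfamily C, had 40, 31 and 29, and the peptide transporter gene *tap1* had 12, 4 and 1. Light, precursor and electrophile cannot be told apart in the comparisons with the non-treated library. Both Z-REX libraries had the same light exposure by the labels, and between them precursor and electrophile cannot be told apart.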

How the data were processed

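Poly(A) RNA of whole embryos was sequenced from 500 ng total RNA as single-end reads of 81 nt, with 1 library per condition. The authors trimmed reads with cutadapt 1.8 and mapped them to GRCz10 with TopHat2 2.1. The deposited FPKM values were made by the authors with Cufflinks 2.2. The deposited expected counts are reads per gene, not scaled between libraries, with some reads divided between genes (among the members, only *abcb11a*), and were rounded to whole numbers here. The library kit marks strand. The counting tool, and whether it used strand, are not given in the sources used here.

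Counts were scaled with TMM (edgeR 4.0.16, R 4.3.3) on genes averaging 10 or more counts, and the library totals lay between 15084294 and 17996111. Reads of each gene in 2 libraries were compared with an exact two-sided conditional binomial test (scipy 1.17.1), Benjamini-Hochberg adjustment over 18563 genes and Clopper-Pearson 95% intervals. No quasi-likelihood fit is possible without replicates. The procedure was tested on data simulated with counting error only, which cannot show how it behaves with spread between libraries. The procedure called 181 of 199 genes changed 3-fold and 4 unchanged genes, for a simulated comparison of HNE Z-REX with non-treated over 18556 genes. These 3-fold changes are larger than the largest ratio of a member, 2.65 (*abcb6a*).

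Named genes are all called members, the most abundant of each subfamily and of all members, and members of well-known role. Members named outside this rule (*ABCC3*, *abca3b*, *abca12*, *abcb6b*, *abcc6a*, *abcd3b*, *abcc12*, *abcg4b*, *abcb11a*, *abcg5*, *abcg8*, *ABCD2 (2 of 2)*) were chosen after their values were seen. Members, role groups and lists were chosen with earlier results of these data known. Values of 2 members that the rule names are not reported here. Of the 54 identifiers, 53 were in a gene name table. Coordinates are not given, since the annotation at hand is of another build. Alternatives were DESeq2 1.42.0 size factors, total counts, other filters, a 2-fold threshold, an assumed spread between libraries, FPKM with a pseudocount of 0.1 or 1, and members with whole counts. Figures were drawn with matplotlib 3.10.9.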

Additional observations from a re-analysis of the deposited data

Results flagged for a closer look

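In the direct comparison of HNE Z-REX with HDE Z-REX, 4 members were called, by the exact binomial test and the 1.5-fold threshold together. This test compares 2 libraries and not conditions. Other members passed the test but not the threshold, among them *abcb5* at a ratio of 1.28 and *abca1a* at 0.717. With an assumed coefficient of variation of 0.1 between libraries, only *abcf2a* stayed called by edgeR's exact test, beside 0.571% of all genes. The ratio of HNE Z-REX to HDE Z-REX was 1.79 for *abcd4*, where the HNE library stood apart. It was 1.77 for *abcf2a*, where the HNE Z-REX and HDE Z-REX libraries lay on opposite sides of the non-treated one. It was 1.58 for *ABCF2 (2 of 2)*, with 102 against 57 counts. It was 0.429 for *ABCC6*, with 16 against 33 counts.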

How the results depend on the processing

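No paired analysis was possible because each condition has 1 library, and for the same reason no replicate could be left out. The counts of called members depend on the threshold and on the spread assumed between libraries. With a 2-fold threshold 1 member was called in HNE Z-REX against non-treated (*abcb6a*) and 1 in HNE Z-REX against HDE Z-REX (*ABCC6*), against 4 in each before. When edgeR's exact test was run with a set spread between libraries (coefficient of variation 0.1), 3 members were called after HNE Z-REX (*abcb5*, *abcb6a*, *abcd4*), 2 after HDE Z-REX and 1 in the direct comparison (*abcf2a*), beside 0.803%, 0.706% and 0.571% of all genes. With a spread of 0.2, 0 members were called in each comparison, beside 0.183%, 0.0862% and 0.102% of all genes. Scaled by total counts, 4 members were called after HDE Z-REX against 2 with TMM, *abcb5* and *abcc5* being the additions. With this scaling the median log2 ratio over all genes after HDE Z-REX was 0.072, against 0.0073 with TMM. The share of all genes called is not given for the 2-fold threshold or for total counts. Those member counts therefore have no background beside them. In the direct comparison the call of *ABCF2 (2 of 2)* was lost with total counts, at a log2 ratio of 0.61. The call of *ABCC6* was lost without the filter, since more genes were then tested, and under the filter at 50 counts it was not tested. The other 14 of 21 counts stayed within 1.5 times.

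With total counts, 5 small log2 ratios that were not called changed sign: -0.0053 for *abca1b* and -0.052 for *abcb8* in HNE Z-REX against HDE Z-REX, 0.017 for *abcd3a* and 0.062 for *abch1* after HDE Z-REX, and 0.0058 for *abcf1* after HNE Z-REX. The median log2 ratio of the members after HDE Z-REX, 0.021, ran from -0.025 to 0.085 and so has no fixed sign. The 0.085 came with total counts, where the median over all genes after HDE Z-REX was 0.072. After HNE Z-REX the median of the members ran from 0.062 to 0.22. Depth limits the low members, such as *abcb6b*, whose interval after HNE Z-REX ran from 0.857 to 2.73. The cause of these changes was not tested beyond what the alternatives themselves fix.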
